A study of Mus musculus with 5 samples.

Results

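The interferon-inducible GTPases described here are 10 listed genes: 5 guanylate-binding proteins (Gbp2, Gbp3, Gbp5, Gbp6 and Gbp7) and 5 immunity-related GTPases (Irgm1, Irgm2, Igtp, Iigp1 and Tgtp1). They were chosen by symbol. A probe set carried the symbol of 7 of the 10, and these are the genes described, out of 19505 genes tested. Gbp5, Gbp6 and Tgtp1 were not analysed here for level. RNA came from macrophages sorted at day 15 from mice with a B16-F10 graft, a mouse melanoma line placed under the skin. Of the 5 single-colour arrays, 3 held cells from MyD88-ko mice and 2 held cells from WT mice. The strain label is C57BL/6 for both genotypes, the mice were 6 to 12 weeks old and of either sex, and all carried the same graft. Sorted cells carried CD45, CD11b and the surface protein made from Adgre1, and lacked CD3, B220 and NK1.1. Every label calls the cells tumour-associated macrophages, while the protocol for their growth gives spleen as the organ of isolation. The sources used here do not give the deleted exons of Myd88, and no label says whether each array had a mouse of its own. The p-values therefore reflect the variation among the arrays alone, and that variation may be technical.

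Both families are made by macrophages that have sensed an interferon. Interferon gamma binds the receptor chains Ifngr1 and Ifngr2, the kinases Jak1 and Jak2 pass the signal on, and the response is read out at the gamma-activated site (GAS) in promoters. Type I interferons act through Ifnar1 and Ifnar2, and a complex that holds Stat2 and Irf9 binds the interferon-stimulated response element (ISRE), which is also read by Irf1. Guanylate-binding proteins coat bacteria and the vacuoles of parasites and help to open them to inflammasome sensing. Of the immunity-related GTPases, Irgm1, Irgm2 and Igtp are regulators that sit on the cell's own membranes and hold the effectors in check, and Iigp1 and Tgtp1 are effectors that load onto pathogen vacuoles. MyD88 is the adaptor of the IL-1 receptor family and of most Toll-like receptors, and is no part of the interferon receptors themselves.

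The promoters of these genes are shown because the genes moved together from array to array, as described below, and because they share the letters of the ISRE. The sequences are from RefSeq, build GRCm38.p6, and cover the 120 bases before the annotated start of the gene, from -120 to -1, written 5′ to 3′ on the strand of the gene. Capitals mark every match to the ISRE or to the GAS. The ISRE was searched as GAAA, any 2 bases and GAAA. The GAS was searched as TTC, any 3 bases and GAA, which reads alike on both strands. Where a GAS is followed after 2 bases by an ISRE, those 2 bases are in capitals too. Both strands were searched, so an ISRE on the opposite strand appears as TTTC, 2 bases and TTTC. Overlapping matches were kept. RefSeq promoters were at hand for 6 of the 7 measured genes and for Tgtp1 and Gbp5. The members with no entry in the promoter table are Iigp1 and Gbp6. The Gbp2 window is chr3:142620543-142620662 (+), that of Gbp3 is chr3:142559924-142560043 (+) and that of Gbp7 is chr3:142530216-142530335 (+). The Irgm1 window is chr11:48871421-48871540 (-), that of Irgm2 is chr11:58214857-58214976 (+), that of Igtp is chr11:58199436-58199555 (+) and that of Tgtp1 is chr11:48992247-48992366 (-).
Gbp2: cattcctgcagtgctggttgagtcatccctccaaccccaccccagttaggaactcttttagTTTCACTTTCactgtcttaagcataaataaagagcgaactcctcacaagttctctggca
Gbp3: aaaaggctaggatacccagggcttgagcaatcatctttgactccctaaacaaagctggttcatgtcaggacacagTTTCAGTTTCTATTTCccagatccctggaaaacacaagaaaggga
Gbp7: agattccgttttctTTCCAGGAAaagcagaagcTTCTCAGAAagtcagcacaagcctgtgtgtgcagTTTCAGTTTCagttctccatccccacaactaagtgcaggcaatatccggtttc
Irgm1: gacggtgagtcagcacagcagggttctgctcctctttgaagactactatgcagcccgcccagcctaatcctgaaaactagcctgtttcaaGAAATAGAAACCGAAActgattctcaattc
Irgm2: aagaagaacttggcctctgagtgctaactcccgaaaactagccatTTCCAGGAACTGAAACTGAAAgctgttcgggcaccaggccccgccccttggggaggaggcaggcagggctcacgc
Igtp: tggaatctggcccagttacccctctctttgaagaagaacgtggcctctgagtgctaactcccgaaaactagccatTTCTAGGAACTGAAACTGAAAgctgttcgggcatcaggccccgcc
Tgtp1: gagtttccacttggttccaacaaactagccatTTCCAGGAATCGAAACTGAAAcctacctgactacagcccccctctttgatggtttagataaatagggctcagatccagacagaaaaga

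An ISRE match lay in the promoter of all 6 measured genes that have one, within a window from 250 bases before to 50 bases after the start. Over all 32851 promoters of the same length, 3.44% held one. Gbp3 and Irgm1 each held a pair of overlapping ISRE matches, ending at -30 and -36 in Gbp3 and starting at -30 and -24 in Irgm1. RefSeq gives Gbp3 a further start downstream, and that promoter held neither motif. A GAS match lay in 3 of the 6 (Gbp7, Irgm2 and Igtp), against 8.30% of all promoters. In Irgm2 and Igtp the GAS was followed after 2 bases by the ISRE on the same strand, and Tgtp1 had the same arrangement. This joined run, GAS, 2 bases and ISRE, on either strand, was found in 5 of the 32851 promoters: Irgm2, Igtp, Tgtp1, Tgtp2 and Gm12185, all on chromosome 11. All motifs were chosen after the expression values were seen. Aligned on this run without gaps, Irgm2 and Igtp were identical at 112 of 120 bases around it, while Irgm2 and Tgtp1 were identical at 56 of 120. A match to these letters is a description of the sequence and no measurement of binding.

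The guanylate-binding protein genes were high on WT replicate 1 and low on WT replicate 2 and MyD88-ko replicate 2. Values are log2 after RMA normalization, as the authors deposited them. A background limit was set on each array at the 95th percentile of its 5222 negative-control probe sets, and it lay between 6.55 and 6.96. Gbp2, a coat protein of bacterial and parasite vacuoles, was at 7.71, 6.11 and 7.62 on MyD88-ko replicates 1, 2 and 3 and at 8.97 and 6.43 on WT replicates 1 and 2. The 3 MyD88-ko values lay below WT replicate 1, and 2 of them lay above WT replicate 2, so the groups overlapped. The MyD88-ko mean was 7.15 ± 0.90 (SD, n = 3), the WT mean was 7.70 ± 1.80 (SD, n = 2), and the genotypes were apart by a difference of -0.55 with a 95% interval of -2.53 to 1.42 (limma, Benjamini-Hochberg adjusted p over all genes = 0.805).

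Gbp3, a further guanylate-binding protein of the same chromosome 3 cluster, was at 7.35, 6.04 and 7.40 on the MyD88-ko arrays and at 8.43 and 6.80 on the WT arrays. In MyD88-ko Gbp3 averaged 6.93 ± 0.77 (SD, n = 3), and in WT it averaged 7.61 ± 1.15 (SD, n = 2). The difference of -0.69, with a 95% interval of -2.12 to 0.75, was the most negative of the 7 and did not pass (limma, adjusted p = 0.669). Gbp7, which helps to bring antimicrobial oxidases to vacuoles, was at 6.98, 5.50 and 6.92 on the MyD88-ko arrays and at 7.70 and 6.25 on the WT arrays. The array order was again WT replicate 1, then MyD88-ko replicates 1 and 3, then WT replicate 2, then MyD88-ko replicate 2. The means of Gbp7 were 6.47 ± 0.83 (SD, n = 3) and 6.97 ± 1.03 (SD, n = 2), and the difference of -0.51 had a 95% interval of -1.93 to 0.91 (limma, adjusted p = 0.753). For each of these 3 genes, 2 of the 3 MyD88-ko arrays and 1 of the 2 WT arrays lay above the background limit. Of the 7 genes none was above the limit on all arrays and 2 were above it on none, against 15.3% and 75.9% of all genes.

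The regulatory immunity-related GTPases followed the same order of arrays. Irgm1, which is needed for macrophages to control mycobacteria and takes part in autophagy, was at 7.76, 6.74 and 7.49 on the MyD88-ko arrays and at 8.47 and 6.78 on the WT arrays. It was above the limit on all arrays except WT replicate 2. Irgm1 averaged 7.33 ± 0.53 (SD, n = 3) in MyD88-ko against 7.62 ± 1.19 (SD, n = 2) in WT, which is a difference of -0.29 with a 95% interval of -1.57 to 0.98 (limma, adjusted p = 0.845). Irgm2, a regulator found at the Golgi and on vacuoles, was at 6.59, 5.67 and 6.36 on the MyD88-ko arrays and at 7.20 and 5.99 on the WT arrays, with 1 array of each group above the limit. The difference was -0.39 with a 95% interval of -1.39 to 0.61 (limma, adjusted p = 0.729). Igtp, also called Irgm3, a regulator of the endoplasmic reticulum and lipid droplets, was at 5.17, 4.20 and 5.65 on the MyD88-ko arrays and at 6.55 and 4.37 on the WT arrays. All 5 values of Igtp were under the limit, so no fold is given. Its log2 difference was -0.46 with a 95% interval of -2.14 to 1.23 (limma, adjusted p = 0.811).

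Iigp1, the effector also called Irga6, was the exception at the top of the order. It was at 5.02, 2.92 and 4.22 on the MyD88-ko arrays and at 4.78 and 3.33 on the WT arrays, all under the limit. MyD88-ko replicate 1 was its highest array and MyD88-ko replicate 2 its lowest. The group means of Iigp1 were 4.06 ± 1.06 (SD, n = 3) and 4.06 ± 1.03 (SD, n = 2), and the 95% interval of the difference ran from -1.64 to 1.64 (limma, adjusted p = 0.999). That interval does not show that the genotypes were alike, since it reaches 1.64 in both directions on the log2 scale. Array probes can be shared between close paralogues in both families, and probe sequences were not used here, so values of single members may mix family members.

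**Figure D1:**
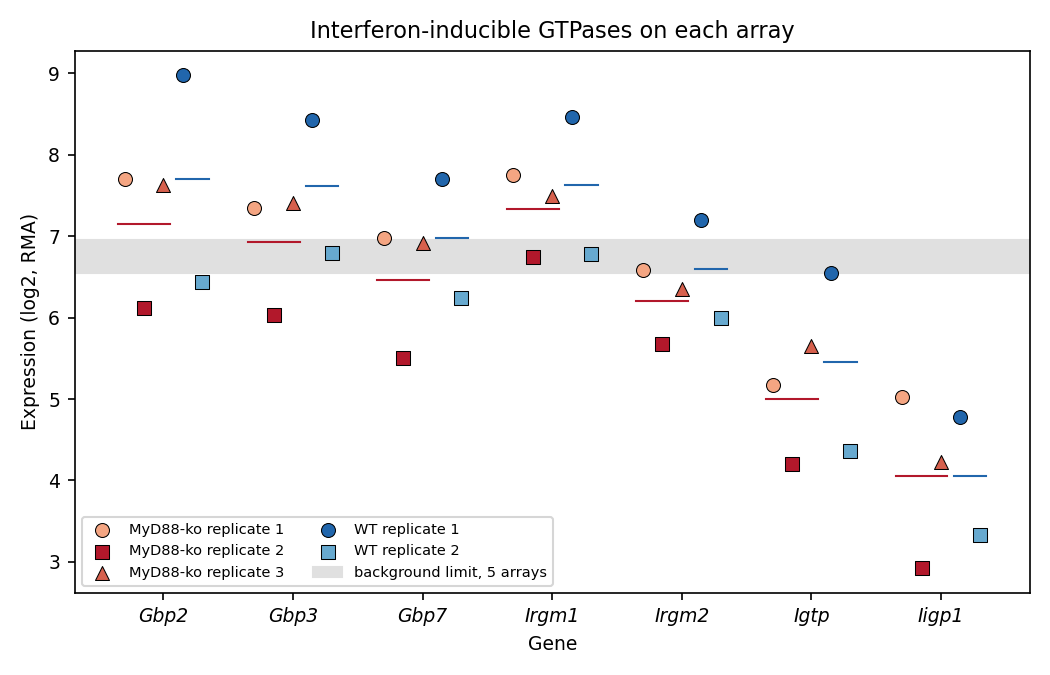
Expression (log2, RMA) of the 7 measured GTPase genes on each of the 5 arrays, with 1 point per array, a red line at the MyD88-ko mean (n = 3), a blue line at the WT mean (n = 2) and a grey band for the background limits of 6.55 to 6.96. In all 7 genes the darkest red squares, MyD88-ko replicate 2, are the lowest points, and WT replicate 1 is the highest in 6.

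None of the 7 genes passed the test between genotypes (limma, Benjamini-Hochberg adjusted p under 0.05), against 0.19% of all 19505 genes (0.185% lower and 0.00513% higher). None had an unadjusted p under 0.05 either, against 12.6% of all genes, and the lowest unadjusted limma p among the 7 was 0.290 for Gbp3. All 7 differences were negative, as were 46.9% over all genes. Their median was -0.46, against 0.02 over all genes. In none of the 7 were the 2 groups of arrays apart without overlap, against 27.8% of all genes (12.9% lower and 14.8% higher). The targeted gene, Myd88, did separate the groups, with 7.01 to 7.73 on the MyD88-ko arrays and 8.40 and 8.46 on the WT arrays, without passing (limma, adjusted p = 0.179). Whether its probe set lies in the deleted part is not known here, so this checks the labels only in part.

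**Figure D2:**
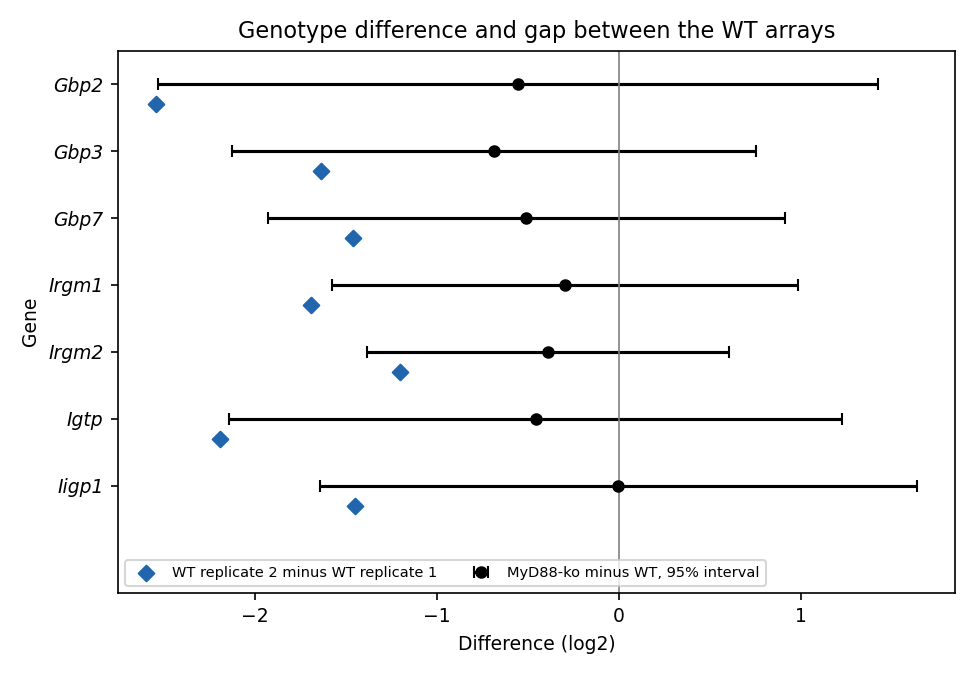
For each gene, the black point is the log2 difference MyD88-ko minus WT with its 95% interval from limma (3 and 2 arrays), and the blue diamond is WT replicate 2 minus WT replicate 1. All 7 intervals cross 0, and all 7 diamonds lie farther from 0 than the points, at 1.20 to 2.54 in size.

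The spread within each genotype was larger than the difference between genotypes. In all 7 genes the gap between the WT arrays exceeded the difference of the group means, which held for 56.4% of all genes. WT replicate 1 was above WT replicate 2 by 2.54 for Gbp2, 2.19 for Igtp, 1.69 for Irgm1, 1.63 for Gbp3, 1.46 for Gbp7, 1.45 for Iigp1 and 1.20 for Irgm2, all on the log2 scale. The median size of that gap was 1.63 in the 7 genes and 0.17 over all genes, and it was above 1 in this direction in 0.692% of all genes. The range over the 3 MyD88-ko arrays had a median of 1.45 in the 7 genes and of 0.25 over all genes. It was above 1 in 6 of the 7 genes, Irgm2 being at 0.92, against 1.0% of all genes. Both conditions held together in 6 of the 7 genes and in 26 of all 19505 genes (0.133%), the 6 among them.

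**Figure D3:**
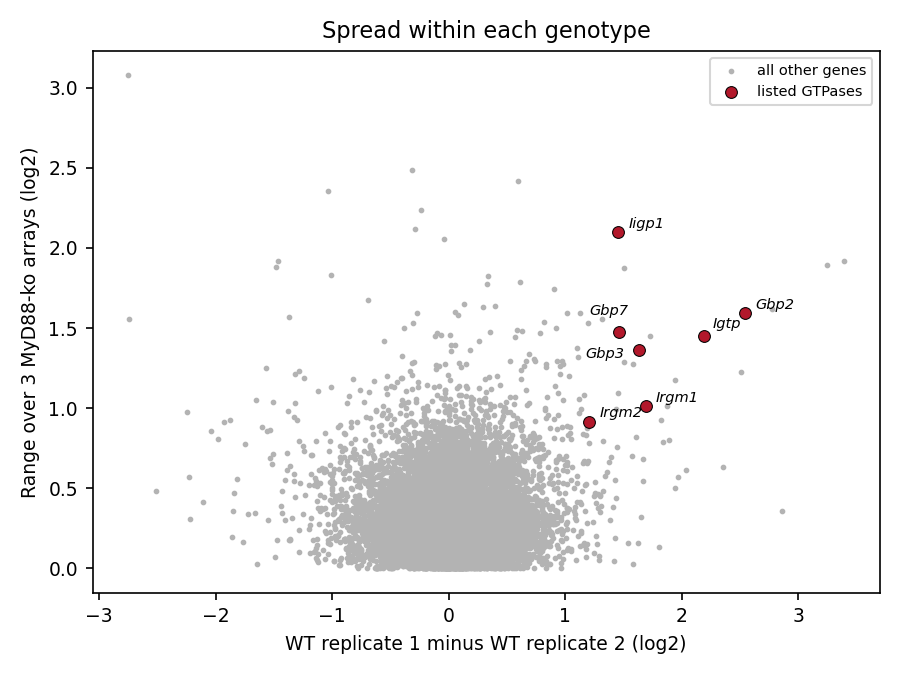
Each point is a gene, with WT replicate 1 minus WT replicate 2 (log2) on the x axis and the range over the 3 MyD88-ko arrays (log2) on the y axis. The 7 GTPase genes, in red, lie at 1.20 to 2.54 on the x axis and at 0.92 to 2.10 on the y axis, to the upper right of most of the other genes in grey.

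The arrays were ordered alike across the genes, irrespective of genotype. MyD88-ko replicate 2 was the lowest of the 5 arrays in 7 of 7 genes, against 18.3% of all genes. WT replicate 1 was the highest in 6 of 7, against 25%, and both held in 6 of 7, against 7.04%. MyD88-ko replicates 1 and 3 were both above WT replicate 2 in 7 of 7, against 36.5%. The whole order, with WT replicate 1 on top, then MyD88-ko replicates 1 and 3, then WT replicate 2 and then MyD88-ko replicate 2, held in 6 of 7 genes and in 1.55% of all genes. Centred on each gene's own mean, the 7 genes averaged 1.12 on WT replicate 1, 0.33 and 0.19 on MyD88-ko replicates 1 and 3, -0.62 on WT replicate 2 and -1.02 on MyD88-ko replicate 2. MyD88-ko replicates 1 and 3 were close neighbours in this order and changed places between genes, with replicate 3 higher in Gbp3 and Igtp and replicate 1 higher in the other 5. WT replicate 2 and MyD88-ko replicate 2 differed by only 0.04 in Irgm1 but by 0.76 in Gbp3. By the root mean square difference of centred values over the 5 arrays, Gbp3 and Gbp7 were the most alike pair of members (0.12), followed by Irgm1 and Irgm2 (0.16), and Igtp and Iigp1 were the least alike (0.55).

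The sign of the genotype difference rested on WT replicate 1. Without that array all 7 differences were positive, from 0.13 for Gbp3 to 0.72 for Iigp1, with a median of 0.55. Without WT replicate 2 all 7 were negative, from -1.83 for Gbp2 to -0.73 for Iigp1, with a median of -1.24. With that single WT array the groups did not overlap in 6 of the 7 genes, and likewise in 59.5% of all genes, so the count is no sign of separation. Without MyD88-ko replicate 2 the median was -0.04, with Iigp1 at 0.56 and Gbp3 at -0.24. No gene passed in any of these fits (limma, lowest adjusted p = 0.314). With the mean of 3 measured Y-linked genes as a covariate, tried because mice of either sex were allowed, the median was -1.20 and no gene passed (lowest adjusted p = 0.661). That mean was 5.51, 5.51 and 4.59 on the MyD88-ko arrays and 5.89 and 6.03 on the WT arrays, so it does not overlap between the genotypes and cannot be cleanly told apart from genotype.

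**Figure D4:**
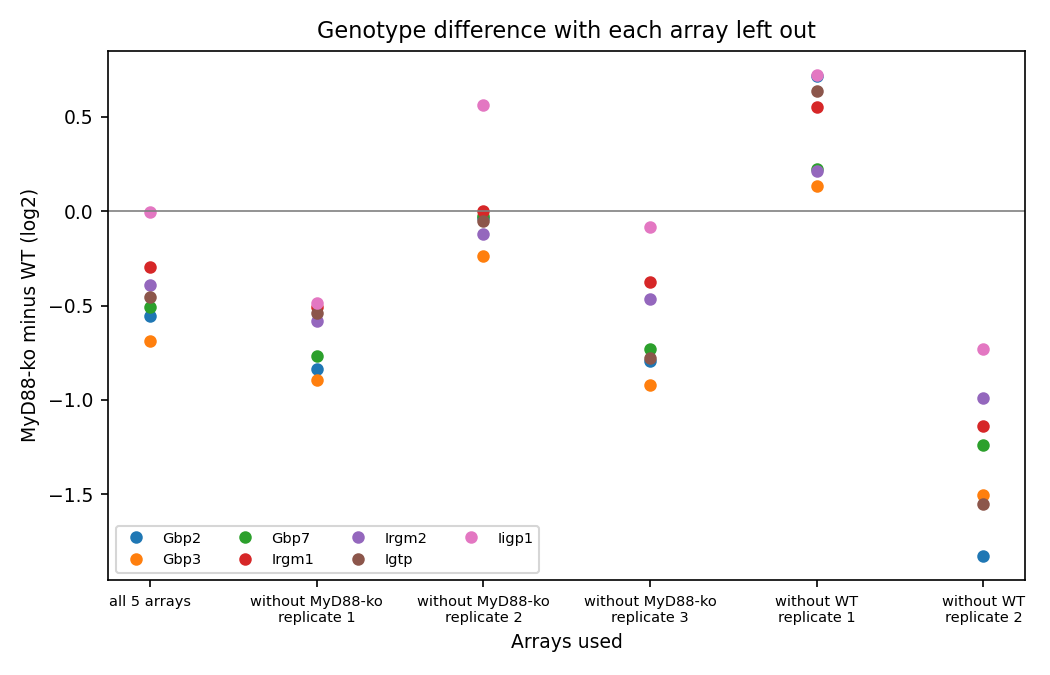
The log2 difference MyD88-ko minus WT of each of the 7 genes (coloured points) with all 5 arrays and with each array left out in turn. The points run from -0.69 to -0.0025 with all arrays, from 0.13 to 0.72 without WT replicate 1 and from -1.83 to -0.73 without WT replicate 2.

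Most other listed GTPases of these families had the same high array. Of 16 listed, 12 were measured, 9 had negative differences, none passed over all genes (limma) or at an unadjusted p under 0.05, and the median difference was -0.74. WT replicate 1 was the highest array in 8 of the 12, against 25% of all genes. The other 4 were Irgq, Irgc1, Gm4951 and F830016B08Rik, all under the background limit on every array. Among the 8, Mx2 was also under it on every array, and Tgtp2, Gm12250, Gbp9 and Mx1 were above it on WT replicate 1 alone. The whole array order of the members held in 4 of the 12, against 1.55% of all genes. Gbp4, a guanylate-binding protein of the chromosome 5 cluster, was at 6.84, 5.59 and 7.20 on the MyD88-ko arrays and at 8.62 and 5.84 on the WT arrays. Tgtp2, a near copy of Tgtp1 whose signal on an array may mix with it, was at 6.34, 4.44 and 5.91 on the MyD88-ko arrays and at 8.09 and 4.84 on the WT arrays. Its gap between the WT arrays, 3.25, was larger than that of any of the 7 members. Tgtp2 shares with Irgm2 and Igtp the joined GAS and ISRE letters of the promoter, and the 3 are the only measured genes with that run in a promoter at hand. The run did not go with a large gap in all 3. Igtp had a gap between the WT arrays of 2.19, and Irgm2 one of 1.20, the smallest of the 7 members.

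The antiviral dynamin-like GTPases and the very large GTPase gave smaller gaps than Tgtp2. Mx1 was at 5.86, 4.0 and 5.87 on the MyD88-ko arrays and at 7.17 and 5.67 on the WT arrays, and Mx2 was at 5.44, 4.37 and 5.08 against 6.19 and 5.34. MyD88-ko replicate 2 was the lowest array in both. Gvin1, which encodes the very large interferon-induced GTPase, was at 6.69, 5.84 and 6.76 against 8.57 and 6.75, a difference of -1.23 (limma, adjusted p = 0.440). Gm12250, the effector also called Irgb10, was at 6.18, 5.47 and 5.98 against 7.57 and 6.00, and Gbp9 was at 6.02, 4.87 and 6.15 against 7.44 and 5.94. Irgq and Irgc1, family members that are not induced by interferon, showed no such order. Irgq lay between 4.96 and 5.23 and Irgc1 between 3.62 and 3.97 over the 5 arrays, all under the background limit.

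The ligand and the receptors of interferon gamma did not follow the order of the GTPases. Of 11 listed signalling genes 9 were measured. The others were not analysed here. None passed over all genes (limma), 3 were lower at an unadjusted p under 0.05, against 6.39% of all genes, and the median difference was -0.26. Ifng, the ligand, was under the limit on all arrays at 2.78 to 2.91, which does not show that the cells or their neighbours made none. Ifngr2, a receptor chain, lay between 7.97 and 8.14. Ifngr1, the ligand-binding chain, was at 8.29, 8.39 and 8.69 on the MyD88-ko arrays and at 8.90 and 8.85 on the WT arrays. Here the genotypes did not overlap and the WT arrays were 0.05 apart, and the limma difference was -0.42 (adjusted p = 0.307). Ifngr2 did not overlap either, but narrowly, with 8.025 on MyD88-ko replicate 2 and 8.030 on WT replicate 1. In 5 of the 9 genes every MyD88-ko array was below both WT arrays, against 12.9% of all genes.

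The kinases and factors downstream differed in pattern among themselves. Jak1 lay between 6.52 and 7.01 with WT replicate 1 lowest. Jak2 was at 6.59, 6.86 and 7.48 on the MyD88-ko arrays and at 8.60 and 7.98 on the WT arrays, a difference of -1.31 (limma, adjusted p = 0.189). Ptpn2, a phosphatase that dampens Jak signalling, had a difference of -0.72 (limma, adjusted p = 0.333), and Socs1, an inhibitor of Jak kinases, one of -0.26 (limma, adjusted p = 0.446). Irf1, the factor that reads the ISRE after interferon gamma, did take the array order of the GTPases. It was above the limit on every array, at 7.87, 7.11 and 7.91 in MyD88-ko and at 8.95 and 7.63 in WT, with a difference of -0.66 (limma, adjusted p = 0.573).

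**Figure D5:**
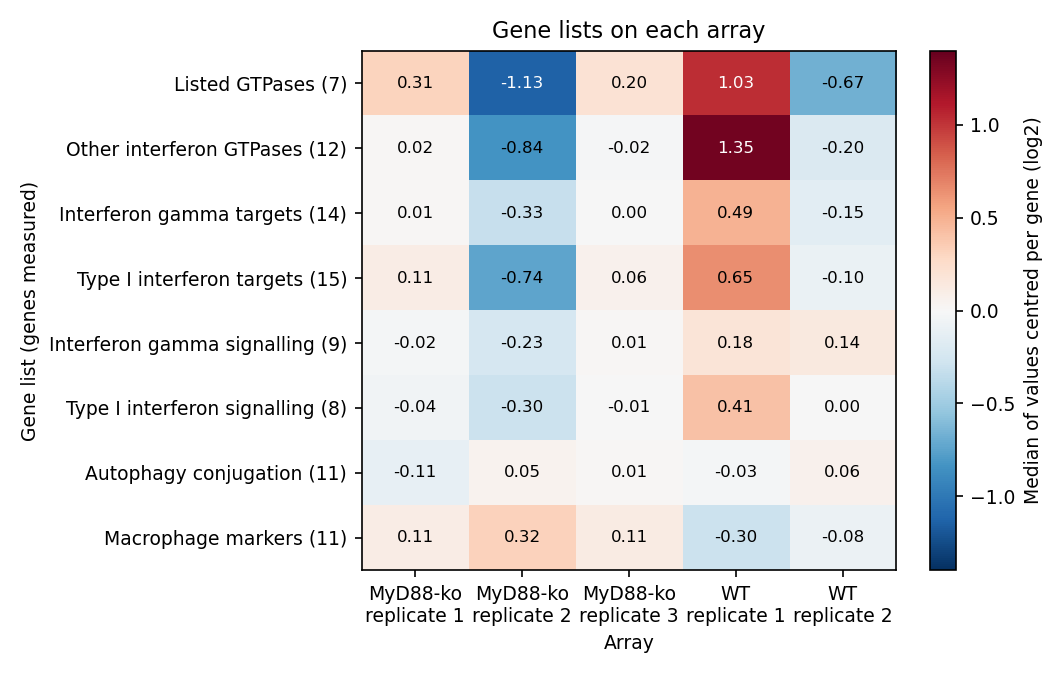
Median over the genes of each list of log2 values centred on the gene's own mean, for each of the 5 arrays, with the number of measured genes in brackets and red for high and blue for low. The listed GTPases range from -1.13 on MyD88-ko replicate 2 to 1.03 on WT replicate 1, and the autophagy conjugation genes from -0.11 to 0.06.

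The type I interferon pathway held both patterns. Of its 8 measured signalling genes none passed over all genes (limma), and the median difference was -0.39. At an unadjusted p under 0.05, 2 of the 8 were lower, against 6.39% of all genes. Ifnar1 and Ifnar2, the receptor chains, had differences of -0.35 and -0.45 (limma, adjusted p = 0.304 and 0.240), with WT arrays 0.10 and 0.30 apart. Irf9 and Usp18 had differences of -0.42 and -0.54, with every value below the background limit. Stat2 was at 7.17, 6.48 and 7.58 on the MyD88-ko arrays and at 8.10 and 7.16 on the WT arrays. Of 15 measured type I interferon targets, MyD88-ko replicate 2 was the lowest array in 14 and WT replicate 1 the highest in 12, and the whole order of the GTPases held in 8. Their median gap, WT replicate 1 minus WT replicate 2, was 0.69. None passed over all genes (limma), and 1 was lower at an unadjusted p under 0.05, against 6.39% of all genes. Oas2, an antiviral RNA sensor, had a difference of -1.36 (limma, adjusted p = 0.263). Rsad2, the antiviral enzyme viperin, had WT arrays at 7.79 and 7.65 and its highest value, 8.12, on MyD88-ko replicate 1. Whether the GTPases and these targets differ in their gap was not tested.

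Targets of interferon gamma outside the GTPases shared the high WT array. Of 14 measured, WT replicate 1 was the highest array in 11, none passed over all genes (limma), and the median difference was -0.28. At an unadjusted p under 0.05, 3 of the 14 were lower, against 6.39% of all genes. Cxcl9, a chemokine that draws T cells, was at 7.48, 5.56 and 6.84 on the MyD88-ko arrays and at 9.20 and 5.80 on the WT arrays. Cxcl10, a chemokine of the same receptor, was above the limit on all arrays, at 8.63, 7.08 and 8.17 in MyD88-ko and at 9.28 and 7.96 in WT. Ciita, Fcgr1 and Cd274 had differences of -1.13, -0.47 and -1.09 (limma, adjusted p of 0.291, 0.297 and 0.373). Wars, a tRNA synthetase, had a positive difference of 0.31 (limma, adjusted p = 0.420).

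The genes whose array pattern was most like that of the 7 GTPases were sought among 4697 other genes above the background limit on at least 1 array. Likeness was the root mean square difference, over the 5 arrays, between a gene's centred values and the mean centred values of the 7. The 6 closest were Cxcl10 (0.21), Ifit3b (0.24), Ifit3 (0.26), Irf1 (0.26), Zbp1 (0.27) and Irf7 (0.30). The members themselves lay between 0.12 for Gbp7 and 0.34 for Iigp1. Each member is part of the mean it was measured from, which makes its distance smaller, so these values cannot be set against those of other genes. Igtp and Iigp1 entered that mean although they were under the limit on every array. Ifit3 was at 7.32, 6.04 and 7.01 on the MyD88-ko arrays and at 7.80 and 6.82 on the WT arrays. Zbp1, a sensor of unusual nucleic acid, was at 5.95, 5.06 and 6.06 against 7.25 and 5.82. Irf7, the factor that amplifies type I interferon, was at 7.35, 6.28 and 7.87 against 7.92 and 6.79, so that MyD88-ko replicate 3 nearly reached WT replicate 1. With 5 arrays this likeness is a description.

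The gap between the WT arrays was also read across promoters. Of 612 measured genes with an ISRE match in a promoter, members left out, 24 (3.92%) had WT replicate 1 above WT replicate 2 by more than 1 on the log2 scale. Over all 15685 measured genes with a promoter at hand the number was 99 (0.631%), and among the 1413 with a GAS match it was 7 (0.495%). The median of this gap was 0.06 with an ISRE match, 0.02 with a GAS match and 0.0008 over all.

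The whole array order of the GTPases held in none of the 11 autophagy genes and in none of the 6 inflammasome genes measured. Only 1.55% of all genes had that order, so in lists this short a count of none does not set them apart. The autophagy conjugation genes, which attach the ubiquitin-like proteins that guide GTPases to vacuoles, had a median difference of 0.00 over 11 measured genes. None of them passed over all genes (limma), and WT replicate 1 was the highest array in 2. At an unadjusted p under 0.05, 1 of the 11 was lower, against 6.39% of all genes. Atg5, a conjugation component, was at 6.54, 6.86 and 6.81 on the MyD88-ko arrays and at 7.01 and 7.02 on the WT arrays, a difference of -0.28 (adjusted p = 0.458), and Atg3 had a difference of -0.31 (adjusted p = 0.343). Gabarapl1 and Sqstm1 had positive differences of 0.32 and 0.24 that did not pass. Among 6 inflammasome genes that guanylate-binding proteins feed, 6 differences were negative and the median was -0.86. At an unadjusted p under 0.05, 5 of the 6 were lower, against 6.39% of all genes. WT replicate 1 was the highest array in 4 of the 6 and MyD88-ko replicate 2 the lowest in 3, and the median gap between the WT arrays was 0.72. Nlrp3, an inflammasome sensor, was the 1 that fell over all genes, as 0.185% of all genes did. It was at 6.58, 6.60 and 6.96 on the MyD88-ko arrays and at 8.12 and 8.20 on the WT arrays, a difference of -1.44 (limma, adjusted p = 0.039). Casp4, the caspase that senses lipopolysaccharide, was at 5.71, 5.33 and 5.58 against 7.55 and 6.13 (-1.30, adjusted p = 0.270). Aim2, a DNA sensor, and Gsdmd, which forms the pore, had differences of -0.88 and -0.58 (limma, adjusted p of 0.320 and 0.279). The WT arrays were 0.08 apart for Nlrp3, 1.41 for Casp4, 1.09 for Casp1, the caspase of canonical inflammasomes, and 0.92 for Aim2. Every value of Aim2 and Casp1 was below the background limit, and Casp4 was above it on WT replicate 1 alone, which limits what their differences show.

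Markers of cell types were set beside these values, and fewer cells of a type cannot be told from less RNA per cell in such samples. Of the 11 measured macrophage markers 10 were above the limit on all arrays, and their summed linear level was 16335, 16208 and 15925 on the MyD88-ko arrays and 12787 and 15098 on the WT arrays, lowest where the GTPases were highest. The 7 monocyte markers summed to between 1604 and 2518 in MyD88-ko and to 5661 and 4161 in WT. Their highest array was WT replicate 1 and their lowest MyD88-ko replicate 2. WT replicate 2 was second highest, whereas in the GTPases it lay below MyD88-ko replicates 1 and 3. In 6 of the 7 every MyD88-ko array was below both WT arrays, against 12.9% of all genes. Hp was the 1 of them called lower over all genes (limma), as were 0.185% of all genes. At an unadjusted p under 0.05, 6 of the 7 were lower, against 6.39% of all genes. The 9 conventional dendritic cell markers summed to between 278 and 508 in MyD88-ko and to 814 and 547 in WT. None was called over all genes (limma), and 4 were lower at an unadjusted p under 0.05, against 6.39% of all genes. These 4 were Dpp4 by a difference of -0.82, Flt3 of -0.81, Ccr7 of -0.71 and Cd209a of -1.15. On every array 7 of the 9 were below the background limit, the defining genes Flt3, Xcr1, Clec9a and Zbtb46 among them. Cd209a and Ccr7 made up most of the sum. The 9 melanoma markers summed to 5256, 3922 and 5464 on the MyD88-ko arrays and to 5362 and 3761 on the WT arrays, so the arrays with low GTPases were also those with low melanoma markers. The 4 measured fibroblast markers summed to 284, 119 and 230 against 307 and 207, which is the array order of the GTPases. That order held in 2 of the 4 genes, against 1.55% of all genes. On every array 3 of the 4 were below the background limit. The part of these cells in the GTPase values was not tested.

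Markers of T cells, NK cells and B cells were near background. Every value of the 9 measured T cell, 9 NK cell and 5 B cell markers was below the background limit. The cells were sorted to lack CD3, NK1.1 and B220, so these values cannot show which sources of interferon gamma the tissue held. The summed level of the NK cell markers was between 66.3 and 73.3 in MyD88-ko and 89.2 and 74.7 in WT, and that of the T cell markers was between 135 and 144 and 136 and 128. Neutrophil markers summed to between 378 and 545 in MyD88-ko and to 2585 and 3719 in WT, higher on WT replicate 2, where the GTPases were low. Of the 12 measured, 6 fell over all genes (limma), as did 0.185% of all genes. The 5 plasmacytoid dendritic cell markers summed to between 781 and 836 and to 750 and 731, but 3 of the 5, Siglech among them, were under the limit on all arrays, and Tcf4 and Bst2 made up most of the sum. The 5 endothelial markers, with every value below the limit, summed to between 67.8 and 75.2 and to 92.8 and 72.0.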

How the data were processed

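Total RNA of the sorted cells (3 MyD88-ko samples, 2 WT samples) was labelled and read on Affymetrix arrays, 1 array per sample. The authors deposited log2 values made with RMA (background correction, quantile normalization between arrays, summary per probe set) in Expression Console 1.1 (Affymetrix); the tool is named per the submitters' processing notes. For the probe sets, the genome build is not given in the sources used. Of 28846 rows, 19572 had 1 gene symbol, none had several and 9274 had none. All 19572 matched RefSeq (GRCm38.p6). The probe set with the highest mean was kept per gene, which left 19505 genes.

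A limma 3.58.1 model under R 4.3.3 (lmFit, eBayes; genotype alone, all arrays) was fitted and p-values adjusted over all genes with Benjamini-Hochberg. The fit was run on simulated data with independent noise, its size taken per gene from the MyD88-ko arrays. That checks the code only, since the genes described here moved together and also spread widely between the WT arrays. Arrays correlated at r between 0.969 and 0.992 over genes, and their medians lay between 4.33 and 4.42. Array values have no read depth, so the number of arrays limits the precision. Members and lists were chosen with earlier results of these data known. The text names all members, up to 4 genes per list with the lowest p, a fixed set of pathway genes, and the 6 genes closest in pattern. The type I interferon target list, the promoter motifs and Tgtp2, Irgq, Irgc1, Gm4951, F830016B08Rik, Stat2, Casp1, Siglech, Rsad2, Xcr1, Clec9a and Zbtb46 as named genes were chosen after values were seen. Alternatives covered normalization, level filters, probe set choice, moderation, array weights, the replicate block, a Y-linked covariate, all rows and each array left out.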

Additional observations from a re-analysis of the deposited data

How the results depend on the processing

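No member passed an adjusted p of 0.05 under any alternative run (limma), and in the fit of all arrays by genotype none passed 0.1. The differences of the 7 members kept a negative sign under renormalization (quantile, equal medians, cyclic loess), the 25th percentile level filter, averaged probe sets, moderation with a trend or made robust, the replicate block, the Y-linked covariate and the fit of all rows. With array weights Iigp1 turned to 0.027, and the 50th percentile filter removed Iigp1. With 1 array left out in turn the median difference ranged from -1.24 to 0.55, and the number of members whose groups did not overlap from 0 to 6, the 6 being without WT replicate 2, where 59.5% of all genes did not overlap either. The differences ranged from -1.83 to 0.72 for Gbp2, from -1.50 to 0.13 for Gbp3, from -1.24 to 0.22 for Gbp7, from -1.14 to 0.55 for Irgm1, from -0.99 to 0.21 for Irgm2, from -1.55 to 0.64 for Igtp and from -0.73 to 0.72 for Iigp1. Fits with a single WT array take its spread from the MyD88-ko group. The replicate numbers are shared by the groups as 1 and 2. With the replicate block, which takes no difference from MyD88-ko replicate 3, the median was -0.73, no member passed (limma, lowest adjusted p = 0.088, Gbp3) and 70 genes passed over all. There 5 of the 7 (all but Irgm1 and Iigp1) had an unadjusted p under 0.05, against 12.9% of all genes and none of the 7 without the block. The block fit leaves 1 residual degree of freedom before moderation. The 7 genes moved together from array to array, so these 5 are not separate results. Deviations from the group means correlated across genes at 0.06 for replicate 1 and 0.10 for replicate 2. MyD88-ko replicate 3, which shares no number with a WT array, correlated at 0.05 with WT replicate 1. With 2 WT arrays the correlation with the other WT array is the same with the opposite sign. Nothing in the labels says that a number marks a shared source. Over all genes the count of 37 became 0 with the Y-linked covariate, 0 to 1 with an array left out, 3 with all rows, 15 with array weights, 56 with quantile normalization, 60 with equal medians and 65 with cyclic loess. Values under the background limit, as for Igtp and Iigp1 on all arrays, limit what can be said of them.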
